A study of Rattus norvegicus with 2 samples.

Results

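Genes of visceral satiety signalling were described in the nucleus tractus solitarius (NTS) of a female and a male pool of rats. The genes are 5 that encode peptide precursors, Prlh, Gcg, Cck, Cartpt and Nucb2, and 5 that encode receptors, Glp1r, Cckar, Cckbr, Mc3r and Mc4r. They were taken by name, as every rat probe whose array symbol was one of the 10. The rule uses no measured value, but the list was drawn up with earlier results of these data known. All 10 were on the array, out of 18822 genes with a symbol, and were covered by 12 probes and 21 spots. The female group was RNA of 5 female Wistar Kyoto rats, 9 weeks old, and the male group was RNA of 5 male Wistar Kyoto rats of the same age. The labels name no treatment for either group, and all rats ate freely until the day of collection and were killed by ether and decapitation. The dissected block reached 1.0 mm in front of the calamus scriptorius and 0.5 mm behind it. The labels give equal amounts of RNA per rat, 100 ng, pooled by sex. A single-colour Agilent array was hybridised with each pool.

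The NTS is the brainstem nucleus where vagal afferents from the gut end. Cholecystokinin released by the intestine acts on vagal fibres, and signals of a meal reach NTS neurons that contain proglucagon, prolactin-releasing peptide or CART peptide and project to the hypothalamus and other sites that control feeding. Proglucagon, encoded by Gcg, is cut in these neurons to glucagon-like peptides, which act on the receptor encoded by Glp1r. The melanocortin receptors of the dorsal vagal complex, encoded by Mc4r and Mc3r, respond to peptides cut from the Pomc product. The study's comparison is between the sexes.

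Each value is the log2 processed signal of a spot minus the 75th percentile of that array's rat spots, which was 3375 on the female array, against 3441 on the male array. Differences are female minus male. With 1 array per sex there is neither a replicate check nor a test for any difference, so a technical error is given with the difference of each satiety gene probe. That error is the SD of the difference between the arrays over the spots of repeated probes of like brightness. It was 0.31 for probes over 64-fold below the 75th percentile, 0.15 for those 16- to 64-fold below, 0.09 for those 4- to 16-fold below and 0.07 for brighter ones. It covers neither the rats nor the labelling reactions. The error model of the scanning software gives a second error for each spot. In bulk tissue, fewer cells of a type and less RNA per cell cannot be told apart.

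The probe sequences below are shown because the results turn on what these probes hybridise to. They are 60 bases long, written 5′ to 3′ as the array files list them, with their positions on rat build rn4 as the array files state them. The Prlh probe lies at chr9:90154857-90154916 on the plus strand and begins at base 175 of its transcript. The Gcg probe lies at chr3:44436079-44436138 on the minus strand and begins at base 179. In the Gcg sequence the capitals mark 24 bases. The first 6 of them encode the pair of basic residues at which prohormone convertases cut, and the other 18 encode the start of glucagon, so the probe reads the precursor transcript whichever peptide is later cut from it.
Prlh: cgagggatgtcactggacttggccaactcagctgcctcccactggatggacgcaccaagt
Gcg: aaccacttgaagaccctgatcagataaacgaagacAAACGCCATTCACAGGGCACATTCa

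The probes of the melanocortin receptor genes were compared with each other, since these receptors are paralogs. Capitals mark the bases that are identical where the probes overlap in their best ungapped alignment. They share 21 of 32 overlapping bases, or 65.6%. Mc3r is read at chr3:163159796-163159855 on the plus strand and Mc4r at chr18:63391440-63391499 on the minus strand.
Mc3r: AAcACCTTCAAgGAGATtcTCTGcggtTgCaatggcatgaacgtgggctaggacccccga
Mc4r: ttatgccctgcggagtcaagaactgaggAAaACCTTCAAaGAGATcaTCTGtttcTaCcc

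Glp1r and Cckbr have 2 probes each, at different places of the transcript, and the probe nearer the transcript's start is shown for each. The Glp1r probe begins at base 1144 and covers 1530 bases of chromosome 20, chr20:9258276-9259805, so it spans a splice junction. The Cckbr probe begins at base 725 and lies at chr1:163165347-163165406. None of the 12 probes shares a run of 20 bases with another rat probe of the array, the count being 0 for each. This and the comparison of the Mc3r and Mc4r probes set probes against probes, so binding to other transcripts was not tested.
Glp1r: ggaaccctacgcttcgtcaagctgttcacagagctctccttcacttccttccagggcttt
Cckbr: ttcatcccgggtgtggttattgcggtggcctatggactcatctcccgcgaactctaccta

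Among the 10 genes, Prlh stood out. It was 1.54-fold higher in the female pool, while the other 4 peptide precursor genes were lower there by small amounts. Among receptor genes, Cckbr, Mc3r and Mc4r were higher in the female pool, and Cckar and Glp1r were lower. All 12 probes were well above background on both arrays, and none of the 21 spots was saturated or carried an outlier flag. Only Prlh passed 1.5-fold, 1 of 10 genes, against 2.47% of all 15560 counted genes, and 0 of 10 passed 2-fold, against 0.527%. By direction, the 1.5-fold background was 0.9% for genes higher in females, where Prlh lies, and 1.57% for genes higher in males, and at 2-fold it was 0.109% and 0.418%. The background at 1.5-fold was larger among dim genes, being 10.6% of genes in the dimmest class, 3.17% and 1.57% in the next ones and 0.651% in the brightest class, to which Prlh belongs. The median difference of the 10 genes was -0.06, against -0.01 over all counted genes. The median size of their differences without regard to sign was 0.18, against 0.09 over all counted genes. Of the 10 genes, 4 were higher in the female pool, against 46.3% of all counted genes.

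**Figure D1:**
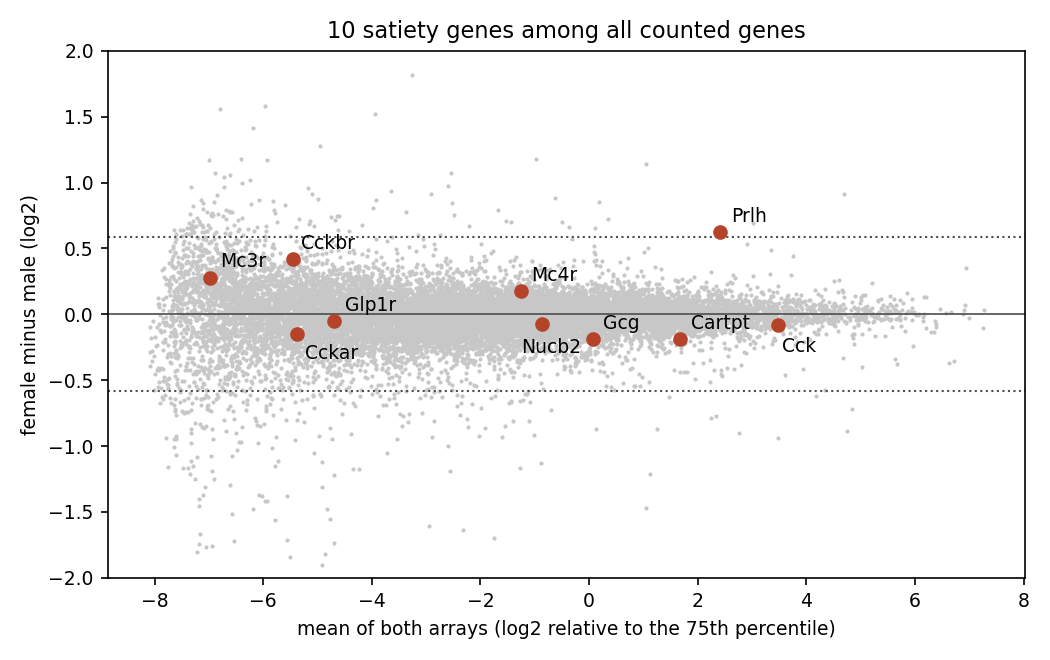
Difference between the pools, female minus male on the log2 scale, against the mean log2 level of both arrays, for all 15560 counted genes (grey) and the 10 satiety genes (red). Dotted lines mark 1.5-fold, and 7 genes lie outside the plotted range of 2 in either direction. Prlh is the only one of the 10 beyond a dotted line.

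The precursor of prolactin-releasing peptide, Prlh, is made by noradrenergic neurons of the NTS and lowers food intake when the peptide is given to rats. Its processed signal was 22424 ± 2242 on the female array, against 14828 ± 1483 on the male array (error model of the software, 1 spot each). On the scaled log2 values this is 2.73 in females, against 2.11 in males, a difference of 0.62 with a spot SD of 0.07 and an error-model error of 0.20. The female value lies above the male value by more than both errors. The scanner's mean pixel signal, before any background step, was 22504 over 63 pixels on the female array, against 15007 over 65 pixels on the male array. The median pixel signal was 22149 on the female array, against 14557 on the male array, and local background was 36 against 35.

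The Prlh difference rests on 1 spot. The 362 spots well above background within 10 rows and columns of it had a median difference of -0.02. The spot lies in 1 of the 4 bands of array rows, out of 20, that hold many dim spots brighter on the male array, and Prlh has no value when single spots of those bands are left out. With the Prlh spot itself left out, 0 of 1039 spots of the brightest class in its band, and 1 of 4027 in the 4 bands, were 1.5-fold or more brighter on the female array, against 37 of 15309 outside the 4 bands. Spots of repeated bright probes in its band scattered about their probe mean with an SD of 0.05, against 0.07 outside the 4 bands. The largest deviation of any of the 499 was 0.22, against 0.41 in the 4 bands together and 1.12 outside them. The last of these is larger than the Prlh difference.

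Gcg, the proglucagon gene, gave a processed signal of 3312 ± 331 on the female array, against 3847 ± 385 on the male array (error model, 1 spot each). The difference was -0.19, 1.14-fold lower in the female pool. It is larger than the spot SD of 0.07 and smaller than the error-model error of 0.20. The 355 neighbouring spots had a median difference of 0.02.

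Cartpt, the precursor of CART peptides, which are found in NTS neurons and vagal afferents, was the only one of the 10 measured with repeated spots. Its 10 spots ranged from 9773 to 11145 on the female array with a median of 10049, and from 11008 to 12920 on the male array with a median of 11894. The ranges overlap. Spot by spot, the male array was brighter at 10 of 10 positions, with differences from -0.25 to -0.14. The mean difference was -0.19 with an SD of 0.03 over the 10 positions, or 1.14-fold lower in the female pool. These positions share 1 pool per sex, so their agreement speaks for the reading of these arrays and not for the rats. The Cartpt probe lies at chr2:30889869-30889928 on the minus strand, and the plot of its spots shows the 10 lines running the same way.

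**Figure D2:**
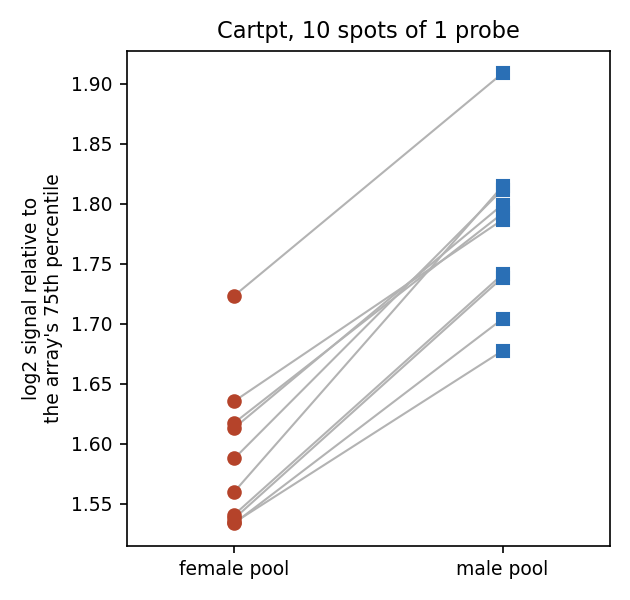
Log2 signal of the 10 Cartpt spots relative to the array's 75th percentile, for the female pool (circles) and the male pool (squares). Grey lines join spots at the same position of both arrays. Every line is lower in the female pool, by 0.14 to 0.25, while the ranges of the pools overlap.

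Cck encodes cholecystokinin, which is a peptide of gut endocrine cells and also of many neurons. Its processed signal was 36434 ± 3643 on the female array, against 39360 ± 3936 on the male array (error model, 1 spot each), a difference of -0.08 with a spot SD of 0.07. Its spot lies in column 85, the last column of the array, and with normexp background correction the difference was -0.16. Nucb2 encodes nucleobindin 2, the precursor of nesfatin-1. Its processed signals were 1801 ± 180 on the female array, against 1936 ± 194 on the male array (error model, 1 spot each), a difference of -0.08 with the same spot SD. The Nucb2 probe covers 158 bases of chromosome 1, chr1:174630840-174630997, and so also spans a splice junction. Cck and Nucb2 thus lay just beyond 1 spot SD and within the error-model error of 0.20.

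**Figure D3:**
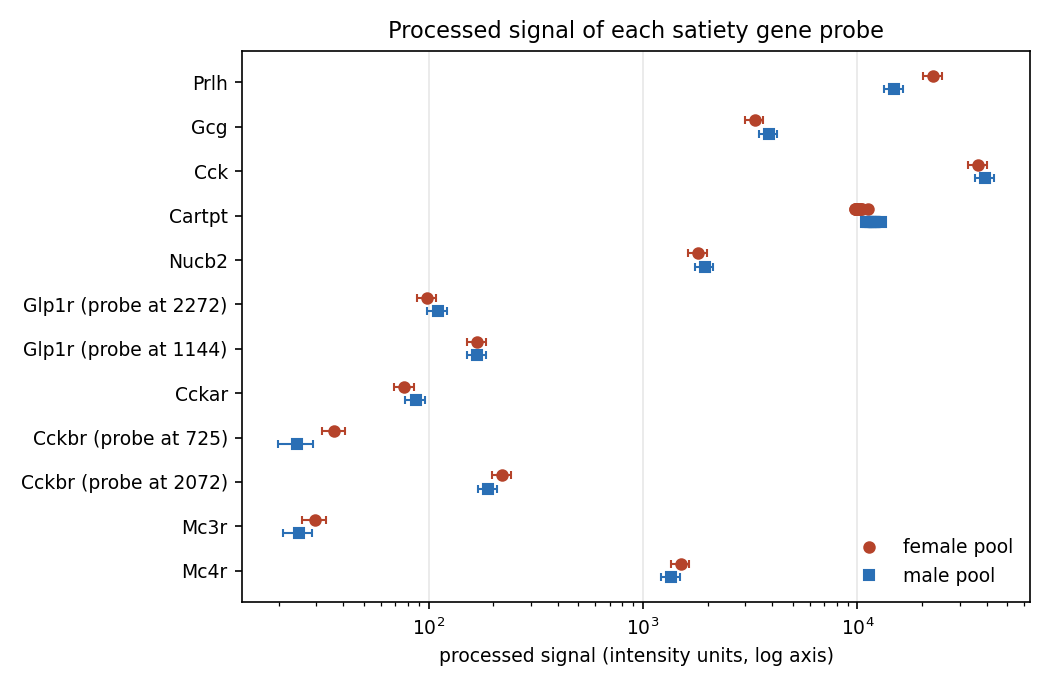
Processed signal of each probe on a log axis, for the female pool (circles) and the male pool (squares). Bars are the scanning software's error for probes with 1 spot, the 10 Cartpt spots are drawn one by one, and signals of different probes cannot be set against each other. Bars of the arrays do not overlap for Prlh and for the dim Cckbr probe at base 725.

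Most receptor probes fell in the dim classes with the larger spot SDs, and Mc4r alone was in the brightest class. Mc4r, the melanocortin receptor whose loss causes obesity in mice and humans, gave 1495 ± 150 on the female array, against 1352 ± 135 on the male array (error model, 1 spot each). The difference was 0.17, or 1.13-fold higher in the female pool, against a spot SD of 0.07 and an error-model error of 0.20. Mc3r, the receptor that shares ligands with Mc4r, gave 29.4 ± 3.7 on the female array, against 24.8 ± 3.9 on the male array (error model, 1 spot each). Its difference of 0.28 is within its spot SD of 0.31. The mean pixel signal of the Mc3r spot before background subtraction was 80.5 on the female array, against 80.2 on the male array. The background that the software subtracted there was 50.1 on the female array, against 54.3 on the male array. With normexp background correction the difference was 0.03.

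Cckbr encodes the cholecystokinin receptor that also binds gastrin and predominates in the brain. Its probe at base 725 gave 36.2 ± 4.5 on the female array, against 24.4 ± 4.5 on the male array (error model, 1 spot each), a difference of 0.60 with a spot SD of 0.31. Its probe at base 2072 gave 220 ± 22 on the female array, against 190 ± 19 on the male array, a difference of 0.24 with a spot SD of 0.15. Both probes were higher in the female pool by more than 1 spot SD, and they differ from each other by about 1 SD of the dimmer one. Both differences also exceed the error-model error, which was 0.32 for the probe at base 725 and 0.21 for the other. The gene's value, the median of both probes, was 0.42, or 1.34-fold higher in the female pool. It was 0.24 from the brighter probe alone and 0.17 with normexp background correction.

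Cckar encodes the receptor on vagal afferents and in the area postrema through which cholecystokinin of the gut curbs feeding. Its probe gave 77.1 ± 8.2 on the female array, against 87.04 ± 9.5 on the male array (error model, 1 spot each), a difference of -0.15 that equals its spot SD of 0.15 within rounding. The array files place this probe at no genome position. Glp1r encodes the receptor for GLP-1. Its probe at base 1144 gave 168 ± 17 on the female array, against 168 ± 17 on the male array, a difference of 0.03. Its probe at base 2272 gave 98.4 ± 10.02 on the female array, against 110 ± 11 on the male array, a difference of -0.13. Both lie within the spot SD of 0.15, and their signs are opposite. The median of both was -0.05.

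**Figure D4:**
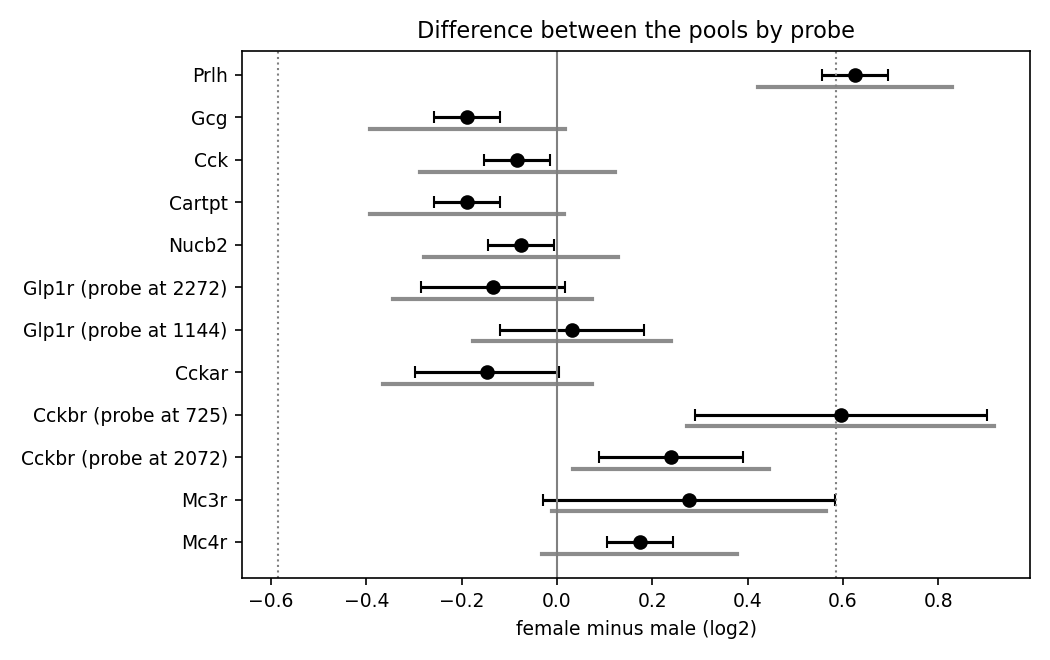
Difference between the pools by probe, female minus male on the log2 scale. Black bars are 1 spot SD at the probe's brightness, grey bars are the error-model error, and dotted lines mark 1.5-fold. Prlh at 0.62 lies clear of 0 by both errors, as do both Cckbr probes. The Cckbr probe at base 725 lies past 1.5-fold with a spot SD of 0.31.

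Set beside their receptors, the ligand genes read as follows. Gcg gave -0.19 and Glp1r -0.05. Cck gave -0.08, with its receptor genes Cckar at -0.15, within 1 spot SD, and Cckbr at 0.42. The receptors for prolactin-releasing peptide are Prlhr and, with lower preference, Npffr2, and they were measured among other genes of the pathways.

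These other genes were 40 in 5 lists, of which 32 were counted. 1 of the 32 passed 1.5-fold, against 2.47% of all counted genes. Of the 32, 18 were higher in the female pool, against 46.3% of all counted genes. In the list of receptors for prolactin-releasing peptide and genes of noradrenergic neurons, 7 of 8 genes were counted, 0 passed 1.5-fold, and the median was 0.03. Prlhr gave 4295 on the female array, against 3060 on the male array, a difference of 0.52, or 1.43-fold, with a spot SD of 0.07. Npffr2 gave 123 on the female array, against 91.6 on the male array, a difference of 0.46 with a spot SD of 0.15. Prlh and both its receptor genes therefore had higher signals in the female pool, and each of these single spots lies in the 4 bands of array rows named above. The noradrenergic genes had smaller differences. Th, tyrosine hydroxylase, gave 0.03, Dbh, which makes noradrenaline from dopamine, gave -0.05, and the vesicular transporter gene Slc18a2 gave 0.03. Ddc gave -0.09, and each of these 4 had a spot SD of 0.07. Phox2a, a transcription factor of noradrenergic neurons, gave 0.10 with a spot SD of 0.15, and its single spot also lies in the 4 bands.

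In the list of melanocortin ligands, accessory proteins and other receptors, 5 of 8 genes were counted, with a median of -0.04, and 1 passed 1.5-fold. This was Mrap, an accessory protein of the adrenal ACTH receptor, at -1.12 with a spot SD of 0.15, from 76.0 on the female array, against 168 on the male array. Pomc, the precursor of the melanocortin agonists, gave 6019 on the female array, against 5412 on the male array, a difference of 0.18 with a spot SD of 0.07. Agrp, which encodes the endogenous antagonist, gave 0.24 against a spot SD of 0.15. The dim Mc5r gave -0.10 with a spot SD of 0.31. Mrap2, whose product modulates Mc4r signalling, gave -0.04 with one of 0.07.

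In the list of glucagon family partners, 3 of 6 genes were counted, with a median of 0.03 and 0 past 1.5-fold. Gcgr, the glucagon receptor gene, gave 0.27 within a spot SD of 0.31, Gipr gave -0.15 with one of 0.09, and Sctr, the secretin receptor gene, gave 0.03 with one of 0.09. The Sctr value rests on a single spot in the 4 bands. Dpp4, the protease that degrades GLP-1, was not well above background on both arrays. The list of peptide processing genes had 8 of 8 counted, with a median of 0.01 and 0 past 1.5-fold. Pcsk1 and Pcsk2, the convertases that cut peptide precursors, gave 0.05 and -0.06. Pcsk1n, the inhibitor of Pcsk1, gave 0.14, and Qpct gave 0.08. The spot SD was 0.07 for each of these and for Pam. Pam, which amidates the ends of peptides such as cholecystokinin and GLP-1, was lower in the female pool at -0.45, with 1914 on the female array, against 2671 on the male array. Its single spot also lies in the 4 bands. Of the other satiety signals of the dorsal vagal complex, 9 of 10 genes were counted, with a median of 0.0027 and 0 past 1.5-fold. The calcitonin receptor gene Calcr, part of the amylin receptor, gave 0.25, its partner Ramp3 gave -0.15 over 10 spots, and Nucb1, the paralog of Nucb2, gave -0.07, each with a spot SD of 0.07. The leptin receptor gene Lepr was not well above background on both arrays.

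**Figure D5:**
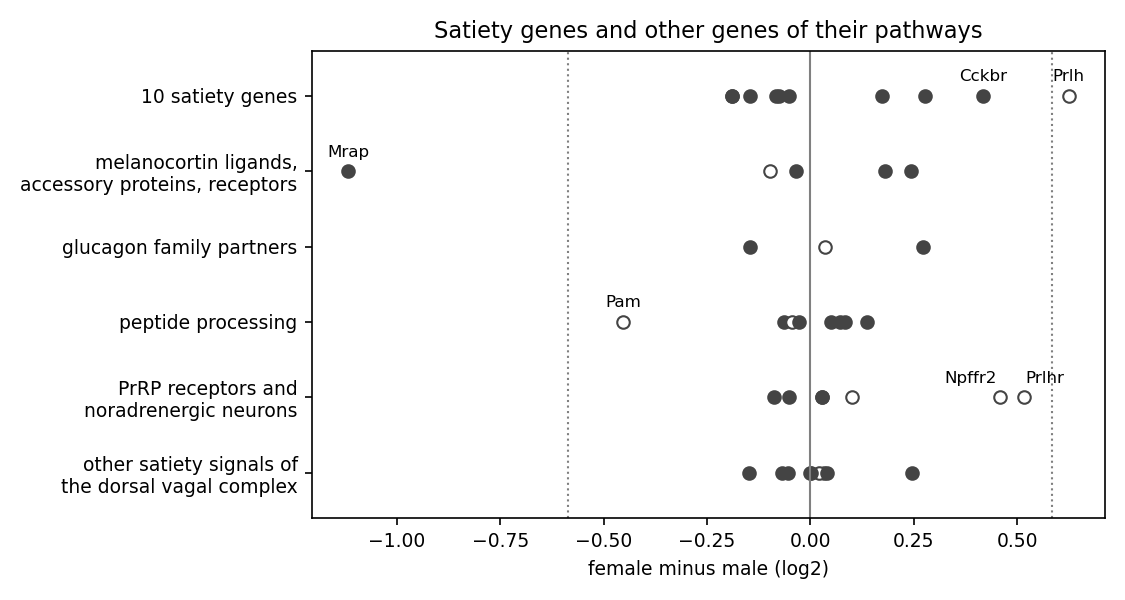
Difference between the pools, female minus male on the log2 scale, for each of the 10 satiety genes and each counted gene of the 5 pathway lists. Open points rest on a single spot in the 4 bands of array rows, and dotted lines mark 1.5-fold. Prlh, Prlhr and Npffr2 at 0.62, 0.52 and 0.46 are open points, and Mrap at -1.12 is the one gene past 1.5-fold among the lists.

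Tissue markers gave the setting, with spot SDs between 0.07 and 0.31 for single genes. Among the markers named below, Hoxb3, Hoxa2 and Gfral lie within their own spot SDs of 0.31, 0.07 and 0.09. Fat2 lies just beyond one of 0.31. Hoxa2, Nefl and Slc18a3 each rest on a single spot in the 4 bands. Genes that mark the dorsal medulla had a median of -0.07 over 4 of 6 genes, with Lmx1b at 0.23, Hoxb3 at -0.21 and Hoxa2 at -0.07. Neuron genes had a median of -0.05 over 4 of 5, with Snap25 at 0.24, Nefl at -0.16 and Nefm at -0.08. Cholinergic genes, as in the vagal motor nucleus, had one of -0.06 over 4 of 4, with Slc18a3 at -0.15, Chat at -0.10 and Slc5a7 at 0.08. Area postrema genes gave 0.04 over 3 of 3, being Calcr and Ramp3, given above, and Gfral at 0.04. Hypothalamic genes gave 0.09 over 5 of 6, with Pmch at 0.30, Agrp at 0.24 and Hcrt at -0.12. Cerebellar genes gave -0.03 over 4 of 5, with Zic1 at -0.48, Pcp2 at -0.41 and Fat2 at 0.35. Of red blood cell genes 3 of 3 were lower in females (median -0.81), and 2 of them, Slc4a1 at -0.85 and Ahsp at -0.81, passed 1.5-fold. So were 5 of 5 meningeal genes (median -0.26), from Col1a2 at -0.90, past 1.5-fold, to Col1a1 at -0.09 over 2 probes. That median is the value of Lum, a single spot in the 4 bands, with 124 on the female array, against 151 on the male array. Also lower were 5 of 5 choroid plexus genes (median -0.25), with Aqp1 at -0.61 past 1.5-fold. Here the median is the value of Kl, also a single spot in the 4 bands, with 73.6 on the female array, against 89.6 on the male array. Astrocyte genes were lower in 3 of 3, with Gfap at -0.32, Aqp4 at -0.26, which is the median, and Slc1a3 at -0.15. Of oligodendrocyte genes 4 of 4 were higher in females (median 0.31), with Mog at 0.48, Mobp at 0.36 and Mag at 0.27. The sizes of these last 5 medians exceed that of the satiety genes' median of -0.06. So do those of the hypothalamic median, 0.09, and, narrowly, of the dorsal medulla median, -0.07. The part of these lists in the satiety gene differences was not tested. Of all counted genes, 46.3% were higher in females and 2.47% passed 1.5-fold. These values depend on the scale. Scaled to 234 spike-in control spots instead, every gene moves by 0.67 towards the female pool, and all 10 satiety genes are then higher there, from 0.48 for Cartpt and Gcg to 1.29 for Prlh, with a median over all genes of 0.66.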

How the data were processed

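Messenger RNA was measured on 2 single-colour Agilent arrays of 1 slide, per the file headers. The deposited intensity values are the processed signal, background-subtracted and detrended within each array by Feature Extraction 10.7.3.1, per the file headers; the submitters' processing notes name version 9.1. A deposited value table holds the same intensity values times 1 factor per array (column medians 27.3 female, 28.0 male). The table is linear and not centred.

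From these, the 75th percentile over rat spots was subtracted from the log2 processed signal, using spots without an outlier flag (430 of 42877 had one), spots of a probe were averaged, and probes well above background on both arrays were counted, which left 24530 probes and 15560 genes. A gene is the median of its counted probes. Symbols came from the RefSeq table of GRCr8 through the probe's accession for 18750 probes and another accession for 1035, and from the array files for 2879; 7703 had none. Between 85.5% (male) and 87.9% (female) of rat spots were well above background. The number of arrays limits the precision.

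With 1 array per sex there was no test; sizes of 1.5-fold and 2-fold were used. Named were all 10 genes and, in each other list, genes past 1.5-fold or otherwise up to 3 with the largest difference. The further genes were named to describe their pathway or list, after their values were seen. The members and lists were chosen with earlier results of these data known. Alternatives covered scaling, background correction (normexp of limma 3.58.1, offset 50), the value table, filters, probe and spot summaries and array position. Steps were tested on simulated data.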

Additional observations from a re-analysis of the deposited data

How the results depend on the processing

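Of 14 alternatives, only spike-in scaling and leaving out the 4 bands changed the count of satiety genes past 1.5-fold, which was 1, to 6 and 0. Past 2-fold the count was 0, and 2 with spike-ins, which also turned the median of -0.06 to 0.60. Apart from spike-in scaling, 9 of the 10 genes kept their sign under every alternative that gave a value, and Prlh lay between 0.62 and 0.66 in 12. For the 7 genes with 1 probe and 1 spot, Prlh among them, other filters and other probe or spot summaries could not change the value. Scaling by the median and the value table moved every gene by the same amount. This agreement is therefore no check on the reading of a single spot. Glp1r gave 0.03 from its brighter probe alone. Counts over all genes moved more. The main counts at 1.5-fold were 140 genes higher in females and 244 higher in males, and at 2-fold 17 and 65. Given in that order, spike-ins gave 10939, 37, 581 and 17, normexp gave 31, 88, 5 and 18, and no background filter gave 986, 576, 437 and 274. A filter on at least 1 array gave 504, 212 and 157, with 344 in place of 244, and probes brighter than the median gave 17, 43, 2 and 8 and left 6 of the 10 satiety genes. Without the 4 bands, chosen for male-bright dim spots, 156 and 38 genes were higher in the male pool at 1.5-fold and 2-fold. In the female pool 121 and 15 were higher. These counts are over unlike numbers of genes. The main setting had 15560 genes, no background filter 18804 and the filter on at least 1 array 16266. The brighter probes left 8611 genes, and leaving out the 4 bands left 13019. No paired analysis was possible because each sex has 1 array, and no replicate could be left out. The causes were not tested. Dim signal limits the Cckbr probe at base 725 and the Mc3r probe, at 24.4 and 24.8 on the male array, where the lowest signal well above background was 13.1, against 9.59 on the female array.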
